A study of Homo sapiens with 6 samples.

Results

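The SOX transcription factors examined here were SOX2, SOX4, SOX7, SOX9, SOX12, SOX13, SOX15, SOX17 and SOX18, 9 genes found by exact symbol among the 27678 loci of the table that carry a gene symbol. Each had 1 row of its own in the table. The assembled region of SOX2 also holds SOX2-OT, LOC102724604 and RNU6-2, and that of SOX15 holds 3 other entries. The cells were MCF10A, an established, non-tumorigenic line of human breast epithelium, transfected either with a pool of siRNAs against PAX9 (siPAX9) or with non-targeting siRNAs (siNT). Both groups received 30 nM of siRNA for 72 hours and comprised 3 samples each, from which poly(A)+ RNA was sequenced. Each locus has 1 FPKM (fragments scaled to transcript length and to the size of the library) per group, so the values below carry no error between samples, no test could be made, and the number of reads behind each is unknown. A difference is described as 2-fold where the ratio of the 2 group values reached 2 in either direction, for loci whose higher group reached 1 FPKM and whose lower group was above 0. As bulk measurements, the values cannot tell fewer cells of a type from less RNA per cell.

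SOX proteins bind the minor groove of DNA through an HMG box (a high-mobility-group DNA-binding domain) and bend it, and they usually act together with a partner factor on the same enhancer. They are sorted into subgroups by the sequence of that domain. SOX7, SOX17 and SOX18 form subgroup F, known for endothelial development and for antagonism of β-catenin. SOX4 and SOX12 belong to subgroup C, SOX9 to E, SOX13 to D, SOX15 to G and SOX2 to B. In epithelia, SOX9 is known as a factor of progenitor cells and of the neural crest, and SOX4 as a TGF-β-responsive factor of plastic epithelial states.

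PAX9 itself, the target of the siRNA, measured 2.80 FPKM in siNT against 0.325 in siPAX9, 8.60-fold lower after knockdown, so it passed the minimum through siNT alone. The cells carried the markers of basal breast epithelium in both groups. KRT5, a basal keratin, measured 1558 FPKM in siNT against 1807 in siPAX9, and TP63, the p63 regulator of basal epithelium, 35.4 and 25.3.

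Of the 9 SOX genes, SOX7 was 2-fold lower in siPAX9, SOX4 and SOX9 were more than 2-fold higher, and SOX12, SOX13 and SOX15 stayed within 2-fold. SOX2 and SOX17 were listed at 0 in both groups, and SOX18 lay below the minimum FPKM. Thus 6 of the 9 passed the minimum, each at 1 FPKM or more in both groups. For comparison, 6.89% of the 12831 named loci that passed the same minimum were at least 2-fold lower and 7.26% at least 2-fold higher. Below, shares of all named loci are shares of these 12831. With 1 SOX gene lower and 2 higher, the counts are too small to be read against these shares. The balance of calls over all named loci depended on the scaling, with more higher than lower under each centring. It was 884 lower to 932 higher as deposited, and 612 to 1250 when changes were centred on the ratio of the summed FPKM. More were lower than higher with 1 added to each FPKM (574 to 562), at a minimum of 5 FPKM (577 to 445) or at a fold of 1.5 (2150 to 1832). The median log2 change was -0.09 for the 6 SOX genes and -0.06 for the 12831 loci.

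**Figure D1:**
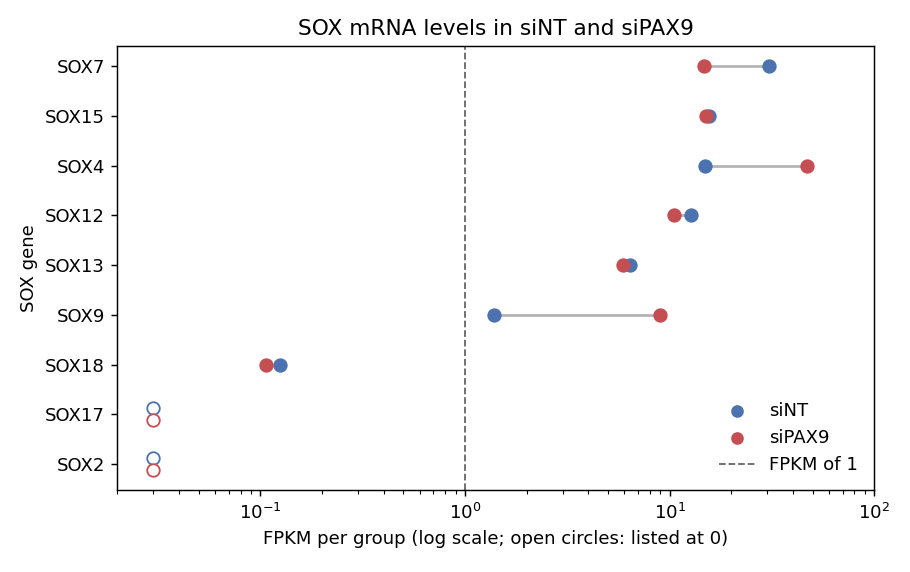
FPKM of each SOX gene (log axis) in siNT (blue) and siPAX9 (red), 1 value per group combined over 3 samples, with a dashed line at an FPKM of 1. SOX7 moves down from 30.5 to 14.8, SOX4 and SOX9 move up, and SOX2 and SOX17 (open circles, drawn at the edge) are listed at 0.

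SOX7 lies on chromosome 8 from 10581278 to 10588084 (hg19), on the minus strand, and its annotated transcript has 2 exons. It measured 30.5 FPKM in siNT against 14.8 in siPAX9. SOX7 was the most abundant SOX mRNA in siNT and at rank 3 in siPAX9. Its ratio was 2.06-fold lower, a log2 change of -1.04, just past the 2-fold threshold. With 1 added to each FPKM the log2 change was -0.99, and centred on the median (-0.08) of the 11890 named loci at 1 FPKM or more in both groups it was -0.96, so neither reached 2-fold. Among the 12831 named loci, 816 had a lower log2 change than SOX7 (6.36%). In the annotation of the same assembly, transcripts of PINX1 overlap SOX7, and reads of the overlapping part cannot be told apart.

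The other members of subgroup F, which can act on the same endothelial genes as SOX7, were at or near 0. SOX17, known for endoderm and arterial endothelium, was listed at 0 in both groups. SOX18, known for lymphatic endothelium, measured 0.125 FPKM in siNT against 0.106 in siPAX9, 2 levels under the minimum of 1 that give no usable ratio. SOX7 therefore accounted for nearly the whole subgroup F level, which was 30.6 in siNT and 14.9 in siPAX9. Of the 10 endothelial markers examined, 2 passed the minimum, 1 through siNT alone and 1 through siPAX9 alone. PECAM1, an adhesion molecule of endothelium, measured 2.58 FPKM in siNT against 0.495 in siPAX9, and KDR, a VEGF receptor, 0.798 and 1.94. TIE1 and EMCN were listed at 0 in both groups, and CDH5, which encodes VE-cadherin, had an FPKM of 0 and 0.00938. The summed FPKM of the 10 markers was 4.63 in siNT and 3.45 in siPAX9, with PECAM1 the most abundant in siNT and KDR in siPAX9.

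SOX9, which directs chondrocyte and neural crest development and marks epithelial progenitors, showed the largest ratio of the 6 SOX genes. It measured 1.39 FPKM in siNT against 9.01 in siPAX9, 6.49-fold higher in siPAX9, with a log2 change of 2.70. Only 213 of the 12831 named loci had a higher log2 change. With 1 added to each FPKM, the log2 change of SOX9 was 2.07, since its level in siNT was low. SOX9-AS1, a noncoding RNA whose region in the table ends just before SOX9 and whose annotated transcripts overlap it, was barely detected, at 0.00881 FPKM in siNT and 0.0499 in siPAX9.

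SOX4, a subgroup C factor with a single exon, became the most abundant SOX mRNA after PAX9 depletion. It measured 14.9 FPKM in siNT against 46.9 in siPAX9. The ratio was 3.14-fold higher, a log2 change of 1.65, and 467 of the 12831 named loci had a higher one. With 1 added to each FPKM it was 1.59. Its level was above that of 62.1% of the named loci in siNT and of 89.2% in siPAX9, whereas SOX7 went from above 80.8% to above 63.4%.

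SOX12, a further subgroup C factor and also a single-exon gene, measured 12.7 FPKM in siNT against 10.5 in siPAX9, a log2 change of -0.27. SOX4 and SOX12 were thus close in siNT, at a ratio of 1.18, and 4.47-fold apart in siPAX9. The 250 bases before the annotated starts of these related genes are shown because the pair shared a subgroup and a gene structure but not a response. They were read from RefSeq promoter entries (GRCh38.p14). Entries of 4 of the 9 members were examined (SOX2, SOX4, SOX12 and SOX13). Promoters of the other members were not searched, which does not mean that they lack an entry. SOX4 is given from chr6:21593501-21593750 and SOX12 from chr20:325302-325551, both on the plus strand, with each CCAAT or its reverse complement ATTGG in capitals.
SOX4: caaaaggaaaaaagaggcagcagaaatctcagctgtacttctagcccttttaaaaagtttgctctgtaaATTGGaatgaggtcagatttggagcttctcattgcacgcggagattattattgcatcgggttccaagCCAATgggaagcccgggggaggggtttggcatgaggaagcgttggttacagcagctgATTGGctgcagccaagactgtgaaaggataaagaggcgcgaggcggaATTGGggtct
SOX12: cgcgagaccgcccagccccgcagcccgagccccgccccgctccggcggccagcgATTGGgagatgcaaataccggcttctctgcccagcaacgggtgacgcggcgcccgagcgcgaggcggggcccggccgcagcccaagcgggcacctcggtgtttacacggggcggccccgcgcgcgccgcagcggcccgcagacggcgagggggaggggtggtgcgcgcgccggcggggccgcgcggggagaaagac

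The SOX4 sequence held 4 matches to CCAAT, the box bound by NF-Y, and SOX12 held 1. At least 1 match was found in 32.0% of the 35116 RefSeq promoter entries, and 4 or more matches in 0.874%. GC content was 48.8% before SOX4 and 79.2% before SOX12, against a median of 58.0% over all entries. The GC box GGGCGG had 0 matches before SOX4 and 3 before SOX12, and was present in 42.6% of entries. The octamer ATGCAAAT, the site of POU factors, had 1 match before SOX12 and 0 before SOX4, and was present in 1.63% of entries. The SOX core ACAAT (24.6% of entries), the TATA box TATAAA (10.7%) and the short PAX9 binding sequences GCGTGACCA (0.137%) and GCGGAACGG (0.188%) had 0 matches before SOX2, SOX4, SOX12 and SOX13. All were searched as exact letters on both strands. ACAAT and CCAAT share their last letters but cannot match at the same place. A match is a description of the letters and not a bound site, and the absence of one says nothing about binding elsewhere.

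SOX15 and SOX13 hardly differed between the groups. SOX15, a subgroup G factor expressed in stratified epithelia and muscle precursors, measured 15.6 FPKM in siNT against 15.0 in siPAX9, a log2 change of -0.06. Its assembled region on chromosome 17 (7482805 to 7493524, hg19) also holds entries for CD68, MPDU1 and LOC100996842, and the annotation has MPDU1 overlapping SOX15. MPDU1 measured 17.6 FPKM in siNT against 13.7 in siPAX9, so the entries did not share a value. SOX13, a subgroup D factor with 14 exons that was first known as an autoantigen, measured 6.43 FPKM in siNT against 5.92 in siPAX9, a log2 change of -0.12. Centred on the ratio of the summed FPKM, the log2 changes became 0.14 for SOX15 and 0.08 for SOX13, so the sign of these small differences is not fixed by the data.

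**Figure D2:**
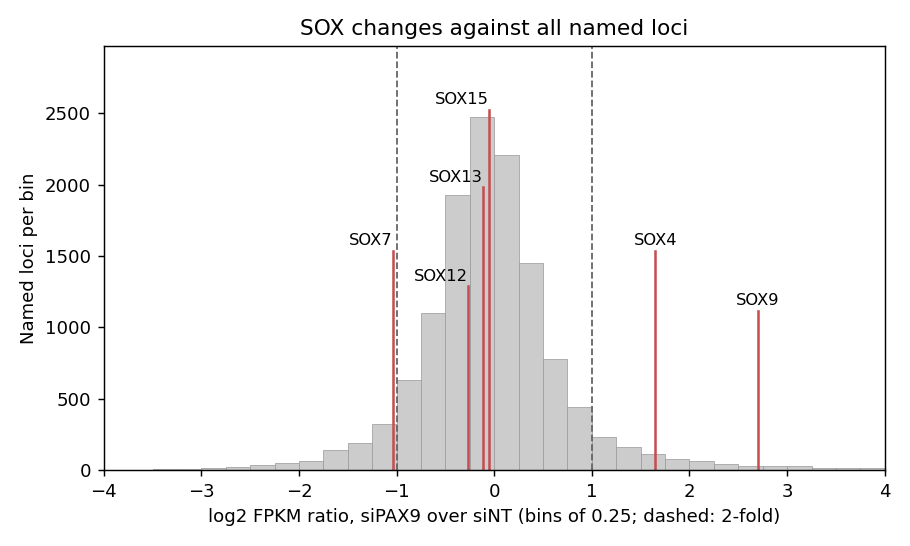
Log2 FPKM ratio (siPAX9 over siNT) of the 6 SOX genes that passed the minimum (red lines) over a histogram of the 12831 named loci, with dashed lines at 2-fold. SOX7 lies at -1.04 beside the lower dashed line, SOX4 and SOX9 lie past the upper one, and the 117 named loci beyond 4 in either direction fall outside the axis.

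The order of the SOX levels differed between the groups. In siNT the order by FPKM was SOX7, SOX15, SOX4, SOX12, SOX13, SOX9 and SOX18. In siPAX9 it was SOX4, SOX15, SOX7, SOX12, SOX9, SOX13 and SOX18. With no values per sample, neighbours in these orders cannot be told apart by spread, and some were close. SOX15 exceeded SOX4 by a ratio of 1.04 in siNT, and it exceeded SOX7 by a ratio of 1.01 in siPAX9. By contrast, SOX7 exceeded SOX9 by 21.9-fold in siNT and by 1.64-fold in siPAX9.

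Because FPKM is scaled to transcript length, the levels can be added within a group. Over all loci the summed FPKM was lower in siPAX9, a log2 ratio of -0.19, and the sums below are not adjusted for this. The summed FPKM of the 9 SOX genes was 81.6 in siNT and 102.2 in siPAX9, a ratio of 1.25. This sum leaves out a locus that joins SOX6 with a microRNA gene, at 23.3 FPKM in siNT and 0.410 in siPAX9. That locus fell by more than the 20.6 FPKM by which the sum rose, so the direction holds for the 9 genes only. SOX7 made up 37.3% of the sum in siNT and 14.5% in siPAX9. SOX4 made up 18.3% and 45.9%, and SOX9 1.70% and 8.82%. The loss of 15.7 FPKM at SOX7 stood beside gains of 31.9 at SOX4 and 7.62 at SOX9. SOX4 and SOX12 together went from 33.8% to 56.1% of the sum, and subgroup F from 37.5% to 14.6%.

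**Figure D3:**
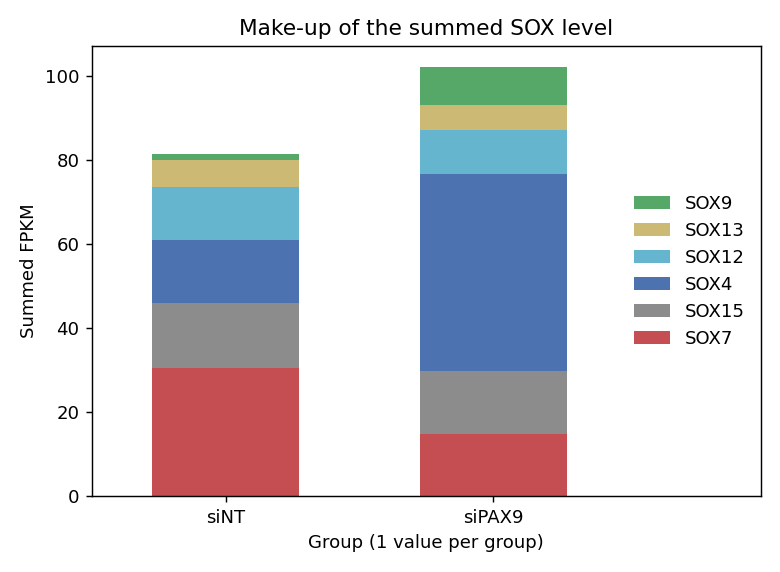
Summed FPKM of the SOX genes in siNT and siPAX9, stacked by gene, 1 value per group; SOX18 at about 0.1 FPKM and the genes listed at 0 are not drawn. SOX7 (red, bottom) is the thickest layer in siNT and SOX4 (dark blue) in siPAX9.

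The rest of the family was at or near 0, with 1 exception. Of 10 other SOX genes in the table, SOX1, SOX3, SOX8, SOX11 and SOX14 were listed at 0 in both groups, and SOX5, SOX10, SOX21 and SOX30 had an FPKM under 1. The exception was the locus of SOX6, which measured 23.3 FPKM in siNT against 0.410 in siPAX9, 56.9-fold lower. This locus joins SOX6 with the microRNA gene MIR6073, which lies inside it, so its value cannot be assigned to either. The libraries were made from poly(A)+ RNA, so the FPKM of the locus is no measure of the mature microRNA. The mature microRNA (RefSeq, GRCh38.p14, chr11:15969555-15969574, minus strand) is shown because it shares the locus, with its seed of bases 2 to 8 in capitals.
hsa-miR-6073: gGUAGUGAguuaucagcuac

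Of 24 genes that share the HMG box but lie outside the SOX family, 18 passed the minimum. Of these, LEF1, HMGB2 and HMGB3 were at least 2-fold lower and 0 were higher, beside 6.89% and 7.26% of all named loci, and the median log2 change was -0.18. With 1 added to each FPKM, HMGB2 alone stayed past 2-fold. HMGB2, an abundant chromatin protein of proliferating cells, measured 63.0 FPKM in siNT against 14.4 in siPAX9, 4.38-fold lower. HMGB3 had an FPKM of 34.4 and 17.1. LEF1, the nuclear partner of β-catenin, had an FPKM of 1.30 and 0.446 and passed through siNT alone. TCF7L2, the most expressed of the TCF and LEF genes, had an FPKM of 8.94 and 8.53. SSRP1, a subunit of the FACT histone chaperone and the most abundant of the list, had an FPKM of 89.8 and 49.3. Whether the SOX genes differ from these genes was not tested.

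Of 20 DNA-binding partners and cofactors of SOX proteins, 9 passed the minimum. The joined SOX6 locus, which passed through siNT alone, was at least 2-fold lower and 0 were higher, beside 6.89% and 7.26% of all named loci, and the median log2 change was -0.38. CTNNB1, which encodes β-catenin and was the most abundant, measured 82.9 FPKM in siNT against 58.2 in siPAX9. KLF4, a factor of epithelial differentiation, had an FPKM of 8.39 and 16.2, a log2 change of 0.95 that stopped short of 2-fold. Under each centring KLF4 passed 2-fold. The pluripotency partners of SOX2 were low, with NANOG under 0.03 in both groups. POU5F1, which has pseudogene copies, had an FPKM of 2.35 and 1.81 in the highest of its 7 loci. NOTCH4 and COL11A2, also on chromosome 6, had 7 loci each as well, so the number is not particular to POU5F1. What those loci stand for was not examined.

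Known target genes were counted by the SOX factor they are linked to in other tissues. Of 18 genes linked to SOX7, SOX17 or SOX18, 7 passed the minimum, 4 of them were at least 2-fold higher in siPAX9 and 0 lower, beside 7.26% and 6.89% of all named loci, and 2 of the 4 passed through siPAX9 alone. These were NOTCH1 (FPKM of 21.5 in siNT and 45.8 in siPAX9), the netrin receptor gene UNC5B (10.2 and 26.8), KDR and the metalloproteinase gene MMP7 (0.0294 and 1.72). KDR and MMP7 were those that passed through siPAX9 alone, so the median of 1.09 over the 7 genes cannot be read as a shift of the list. With 1 added to each FPKM, KDR no longer reached 2-fold. EFNB2, at a log2 change of 0.98, passed 2-fold under each centring. VCAM1 and TIE1 were listed at 0 in both groups.

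Of 18 genes linked to SOX9, 5 passed the minimum, with 1 lower and 1 higher (6.89% and 7.26% among all named loci). They include AMH, whose locus is joined with SF3A2 and MIR4321, so its value cannot be assigned to AMH. FGFR3, a growth factor receptor of cartilage and epithelium, measured 51.3 FPKM in siNT against 22.5 in siPAX9. PTHLH, a secreted regulator of cartilage and mammary development, had an FPKM of 0.267 and 1.16 and passed only through siPAX9. With 1 added to each FPKM, the log2 change of PTHLH was 0.77, short of 2-fold. Centred on the ratio of the summed FPKM, FGFR3 fell just short of 2-fold. The cartilage matrix genes ACAN, COMP, HAPLN1 and COL9A1 were listed at 0 in both groups, and COL2A1, the classical SOX9 target, had an FPKM of 0.132 and 0.603. None of these 5 matrix genes reached 1 FPKM beside the higher SOX9 level. Of 8 fibroblast markers, 3 passed the minimum, all at least 2-fold higher in siPAX9, beside 7.26% of all named loci. The summed FPKM of the 8, mostly from DCN, was 6.45 in siNT and 43.6 in siPAX9. DCN had an FPKM of 5.85 and 37.9, COL1A1 0.454 and 4.13, and POSTN 0.0407 and 1.41, the last 2 passing through siPAX9 alone, whereas COL3A1 was listed at 0 and COL1A2 at 0 and 0.00337. Their part in the SOX9 difference was not tested.

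All 16 genes linked to SOX4 or its relative SOX11 passed the minimum. SEMA3C, a secreted semaphorin, was higher, at 11.6 FPKM in siNT and 46.2 in siPAX9, a log2 change of 1.99. STMN1, SPRY4, DLL1 and PRKCA were at least 2-fold lower. These 4 lower and 1 higher of 16 stand beside 6.89% lower and 7.26% higher of all named loci. With 1 added to each FPKM, PRKCA no longer reached 2-fold. Centred on the ratio of the summed FPKM, neither STMN1 nor PRKCA did. DLL1, a Notch ligand, had an FPKM of 2.39 and 0.116 and passed only through siNT. The locus of SPRY4, an inhibitor of receptor tyrosine kinase signalling, had an FPKM of 13.1 and 4.75. It is joined with the noncoding SPRY4-IT1, and that of STMN1 with MIR3917, so neither value can be assigned to a single gene. EZH2, the Polycomb methyltransferase, had an FPKM of 8.67 and 4.71, a log2 change of -0.88. The median log2 change of the 16 genes was -0.20, beside -0.06 for all named loci. Of 17 genes linked to SOX2, 6 passed the minimum, with NOTCH1 higher, 0 lower (7.26% and 6.89% of all named loci) and a median of -0.25.

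**Figure D4:**
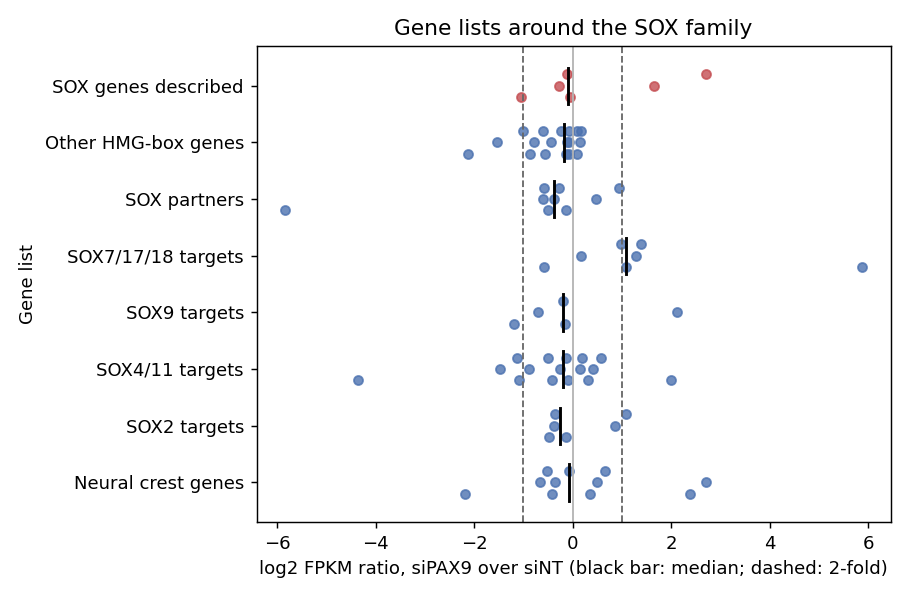
Log2 FPKM ratio (siPAX9 over siNT) of each gene that passed the minimum, by list, with the SOX genes in red, black bars at the medians and dashed lines at 2-fold. The SOX genes spread from -1.04 to 2.70, and the point at -5.83 among the partners is the locus that joins SOX6 and MIR6073.

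SOX9 is also a neural crest gene, and the study examined the neural crest in embryos. In X. tropicalis embryos depleted of pax9, the paper reported reduced in situ signal for Sox9, Twist and Slug. Here SOX9 and TWIST1 were higher in siPAX9 and SNAI2 was lower. The embryos differ from these cells in species, tissue and measure, so the 2 sets of values are not alike. Of 23 neural crest genes, 11 passed the minimum and 9 were listed at 0 in both groups, among them FOXD3, PAX3 and PAX7. SOX9 and ID3, an inhibitor of basic helix-loop-helix factors, were at least 2-fold higher in siPAX9, and NGFR, the low-affinity neurotrophin receptor, was lower and passed through siNT alone. Of all named loci, 7.26% were higher and 6.89% lower. ID3 measured 16.1 FPKM in siNT against 83.9 in siPAX9, and NGFR 2.70 and 0.597. SNAI2, which encodes Slug, had an FPKM of 37.1 and 26.0, a log2 change of -0.51. TWIST1 had an FPKM of 14.6 and 20.7, a log2 change of 0.50. The median log2 change of the 11 genes was -0.07.

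The nearest expressed named locus on each side of the 9 SOX genes gave 18 neighbours, of which 2 were at least 2-fold lower, 0 were higher and 16 stayed within 2-fold, against 6.89% lower and 7.26% higher of all named loci. For SOX7 these were MSRA, 294.9 kb before it with a log2 change of -0.47, and PINX1, with a log2 change of -0.48, which starts 34.4 kb after it in the table but overlaps it in the annotation. Both stayed within 2-fold. For SOX4 they were CDKAL1 at 0.08, 361.3 kb away, and MRS2 at 0.16, farther off still. SOX9 lay between MAP2K6, which was lower at -2.54, and the noncoding LINC00673 at 0.27, which was 276.9 kb away. MAP2K6 lay 2579 kb from SOX9 and passed the minimum through siNT alone, with 1.88 FPKM in siNT against 0.323 in siPAX9. The other neighbour past 2-fold was SNRPE, before SOX13, at -1.05. Under each centring SNRPE no longer reached 2-fold. In the table NRSN2-AS1 ended 318 bases before SOX12, at 0.15, but its annotated transcripts overlap SOX12. Annotated genes without a symbol overlap SOX4, SOX7, SOX9 and SOX13, and reads of such parts cannot be told apart.

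**Figure D5:**
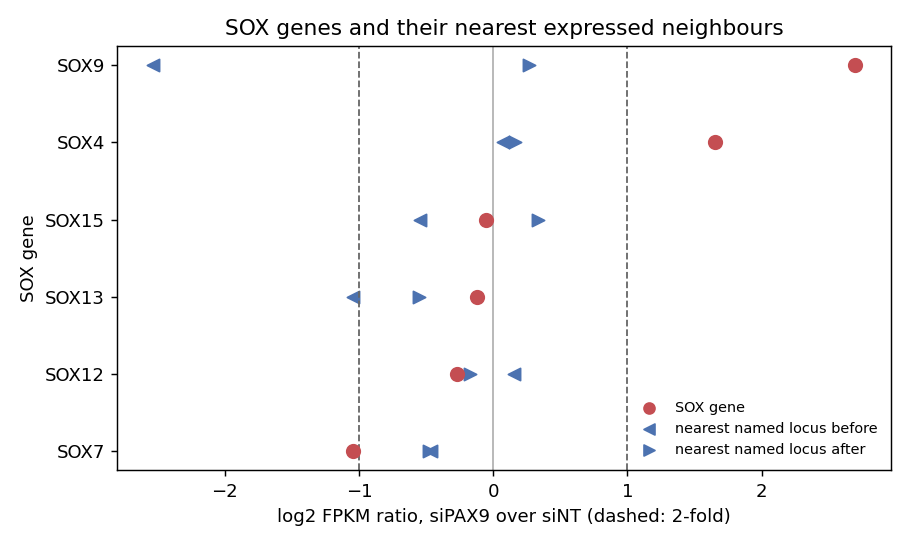
Log2 FPKM ratio (siPAX9 over siNT) of the 6 SOX genes that passed the minimum (red circles) and of the nearest expressed named locus before and after each on the chromosome (blue triangles), with dashed lines at 2-fold. SOX4 and SOX9 lie to the right of both neighbours, and SOX7 to the left of both.

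The loci with values most like SOX7 in both groups were CHST15, LIX1L, PM20D2, LOC100506548 and BFAR. Likeness was the distance between log2 FPKM values over the 2 groups, and it ran from 0.04 for CHST15 to 0.07 for BFAR. CHST15, a sulfotransferase of chondroitin sulfate, measured 30.2 FPKM in siNT against 15.2 in siPAX9. With 2 values per locus, this likeness says only that level and ratio were similar.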

How the data were processed

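RNA-seq of MCF10A cells was analysed in 2 groups of 3 samples, siNT and siPAX9. Per the paper's methods and the submitters' processing notes, single-end reads of poly(A)+ libraries were aligned to hg19 with Bowtie2 and quantified with Cufflinks in Partek Flow. The deposited FPKM values are 1 per locus and group, combined by the authors over the samples; normalization between libraries is not given in the sources used here, and the table holds no read counts. The columns of the authors' own comparison (fold change, test statistic, p-value, q-value, significance) were not used.

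A symbol was assigned its row with the highest mean FPKM, and the change was log2(siPAX9/siNT). The threshold of 2-fold is that of the study, applied without a test to loci that reached 1 FPKM in either group and were above 0 in both. Changes of 2-fold or more were called across all 12831 named loci, and the arithmetic of the ratio and threshold was tested on simulated data. Starts in the table are counted from 0 and are given here from 1. Gene models came from GENCODE release 44 on GRCh37, whose coordinates equal hg19. The genes named were all SOX genes, PAX9, the members of each list that passed 2-fold, and the neighbours of SOX4, SOX7 and SOX9, those past 2-fold or closest; other genes were named for their roles or levels after their values were seen. The SOX genes, the lists and the searched motifs were chosen with earlier results of these data or the sequences known. Alternatives were 0.1 or 1 added to each FPKM, 2 centrings, other minimums and folds, other treatments of rows, and only loci listed with enough reads. Python 3.11.15, numpy 2.4.6, pandas 2.3.3 and matplotlib 3.10.9 were used.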

Additional observations from a re-analysis of the deposited data

Results flagged for a closer look

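A signal stood out in a locus that the comparisons above do not use. RNU6-2, a U6 small nuclear RNA gene in the same assembled region as SOX2, was listed at 0 in siNT and at an FPKM of 14.7 in siPAX9. The table does not list it as having enough reads for a comparison, and U6 genes exist in many near-identical copies, so the value is uncertain. SOX2 itself and LOC102724604 in that region were listed at 0 in both groups.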

How the results depend on the processing

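SOX4 and SOX9 remained at least 2-fold higher in each of the 11 alternatives except at a fold of 4, where 1 SOX gene (SOX9) was higher. The log2 change of SOX4 ran from 1.59 to 1.84 and that of SOX9 from 2.07 to 2.89. SOX7 kept its sign in all 11, from -1.04 to -0.85. The count of SOX genes at least 2-fold lower fell to 0 with 1 added to each FPKM, when centred on the median of the 11890 named loci at 1 FPKM or more in both groups, when centred on the ratio of the summed FPKM (an alternative chosen after seeing the data), and at a fold of 4. SOX7 lies close to 2-fold, and each of these settings lowers its change or raises the threshold.

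Over all named loci, 574 were lower and 562 higher with 1 added to each FPKM, 1463 and 2491 without a minimum FPKM, 577 and 445 at a minimum of 5, 2150 and 1832 at a fold of 1.5, and 166 and 339 at a fold of 4. The other alternatives moved these counts by less than 1.5 times. With 1 added to each FPKM, LEF1, HMGB3, KDR, PTHLH, PRKCA, EPCAM and FOXA1 also no longer reached 2-fold. Under each centring HMGB3, EPCAM and SNRPE no longer reached 2-fold lower, whereas KLF4 and EFNB2 reached 2-fold higher. Centred on the ratio of the summed FPKM, FGFR3, STMN1 and PRKCA also fell short, and CCND1 reached 2-fold higher. SOX15 took the other sign under both centrings and SOX13 under the centring on summed FPKM. No paired analysis was possible because the table holds 1 value per group, and for the same reason no sample could be left out. The levels at or near 0 of SOX2, SOX17 and SOX18 do not show that the genes are silent, since the reads behind them are unknown.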

Other observations

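Within the epithelial markers, KRT6A, a keratin of activated keratinocytes, measured 368 FPKM in siNT against 959 in siPAX9, and CDH1, which encodes E-cadherin, 45.3 and 124.4. EPCAM, an epithelial adhesion molecule, had an FPKM of 34.3 and 16.7. Of the 12 markers, 2 were at least 2-fold higher, 1 was lower and 9 stayed within 2-fold (7.26% higher and 6.89% lower among all named loci), and their summed FPKM was 4371 and 5606. Among 6 markers of hormone-responsive luminal cells only FOXA1 passed the minimum, with an FPKM of 1.10 and 2.86, and ESR1, the oestrogen receptor gene, had 0.0560 and 0.317. Of 6 markers of white blood cells, 2 passed the minimum. CD14 was at least 2-fold higher, with an FPKM of 14.4 and 56.5, beside 7.26% of all named loci, and CD68 stayed within 2-fold at 3.38 and 3.77. CD3E was listed at 0 in both groups and PTPRC had 0.0166 and 0.0922. Of 5 chondrocyte markers, 0 passed the minimum, and their summed FPKM was 0.178 and 0.633.

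The SOX6 locus was set beside all loci that join a microRNA gene with another gene. Of 178 such loci above the minimum, 19 were at least 2-fold lower and 19 higher (10.7% each, beside 6.89% and 7.26% of all named loci), and 0 had a lower log2 change than the SOX6 locus. Among all 12831 named loci, 4 had a lower one. In the table the locus ends at 16497935 on chromosome 11 (hg19), whereas the annotation extends SOX6 to 16761138.

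An unnamed locus of 275 bases lies 3554 bases after SOX4 (chromosome 6, 21602404 to 21602678, hg19). It measured 17.2 FPKM in siNT against 18.3 in siPAX9, a log2 change of 0.09, and so did not share the difference seen at SOX4.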
